A study of Homo sapiens with 9 samples.

Results

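The 9 genes described here code for proteins that pass signals from immune receptors into the cell. TYROBP (DAP12), FCER1G and HCST (DAP10) are small membrane adaptors, FGR, LYN, FYN and SRC are tyrosine kinases of the Src family, and SYK and BTK are the kinases that act next. They were selected from the 57338 genes of the table with measured values of the libraries labelled hPRM1 known, so their levels in those libraries are given as a description without a test. All 9 were found in the table by their Ensembl identifiers.

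RNA was sequenced in 9 libraries of 3 groups with 3 libraries each, all labelled as HEK293T, a line of human embryonic kidney cells. By the labels, the cells carried an EGFP plasmid without insert (empty vector, the control) or a plasmid for hPRM1 or hPRM2, the human protamines that pack sperm DNA, fused to EGFP. Cells with high EGFP were sorted 3 days after transfection, so the groups share the transfection, the EGFP and the sort. The 3′ ends of polyadenylated transcripts were enriched, and nothing in the labels says that replicates came from separate cultures, so p-values measure the spread between these libraries, which may be technical.

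Several facts of the series bear on every value below. PRM2 was at 71224, 60050 and 36130 RPKM in the hPRM2 libraries and at 0 elsewhere, whereas PRM1 was listed at 0 in all 9 libraries, including those labelled hPRM1. Of 8 HEK293T markers, CRABP1 was at 0 in all 9 libraries. Of the other 7, which were above 0 in every empty vector library, 5 were at 0 in all 3 libraries labelled hPRM1 (LIN28B, IGF2BP1, ZIC2, PAX2 and TUBB2B), and the summed level of the 8 was 6.06 to 8.65 RPKM there, against 321.6 to 344.1 RPKM in the empty vector and 132.9 to 287.7 RPKM in hPRM2. All 10 neutrophil and monocyte markers, all 8 lymphocyte markers and all 5 platelet markers were above 0 in each library labelled hPRM1, where HBA2 was at 1146420 RPKM or more. The labelled cell line and insert thus went against the values of these libraries, which are called by their label throughout. Their library names belong to another number series than the remaining 6, and a difference between library batches cannot be told apart from the condition. Reads on genes, estimated from the spacing of low values, numbered 7930000 to 10790000 with the empty vector and 4210000 to 5860000 in the libraries labelled hPRM1. In hPRM2 they numbered 1270000 to 2650000, so by this estimate hPRM2 had the largest counting error. The paper reports total reads, a different measure, with fewer for hPRM1 than for hPRM2.

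An immunoreceptor tyrosine-based activation motif, or ITAM, is a short stretch with a pair of tyrosines in the tail of a receptor subunit or adaptor. When the receptor is engaged, a Src family kinase phosphorylates the tyrosines and SYK, or ZAP70 in T cells and natural killer cells, docks on them and is activated. TYROBP and FCER1G carry an ITAM, whereas HCST carries a motif that binds phosphatidylinositol 3-kinase and GRB2. FGR and BLK are found mainly in blood cells, LYN and LCK are enriched there, and FYN, SRC and YES1 are expressed in most tissues. TYROBP and FCER1G are typical of myeloid and natural killer cells, and BTK of B cells and myeloid cells.

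The promoters of the members are shown because the genes differ in how widely they are known to be used. RefSeq promoters (GRCh38.p14, 250 bases before to 50 after the start, 14 starts) were matched for 7 of the 9 members, and 7 of these starts are printed 5′ to 3′ on the strand of the gene. Capitals mark the letters GAGGAAG, or CTTCCTC on the other strand. These hold the shorter core bound by PU.1, a transcription factor of myeloid and B cells. That core was not counted by itself, so a window without capitals can still hold it.
TYROBP chr19:35908246-35908545 (-): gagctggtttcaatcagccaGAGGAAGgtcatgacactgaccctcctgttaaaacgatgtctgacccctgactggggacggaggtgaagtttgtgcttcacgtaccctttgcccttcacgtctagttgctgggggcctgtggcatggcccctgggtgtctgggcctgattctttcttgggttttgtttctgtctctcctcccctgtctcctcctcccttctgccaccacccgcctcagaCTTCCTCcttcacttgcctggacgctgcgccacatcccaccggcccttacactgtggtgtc
FCER1G chr1:161215045-161215344 (+): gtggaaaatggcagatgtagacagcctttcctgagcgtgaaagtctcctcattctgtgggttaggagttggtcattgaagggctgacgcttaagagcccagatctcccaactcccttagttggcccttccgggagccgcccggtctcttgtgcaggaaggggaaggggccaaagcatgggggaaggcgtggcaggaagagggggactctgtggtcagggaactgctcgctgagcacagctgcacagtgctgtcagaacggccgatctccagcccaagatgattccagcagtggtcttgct
HCST chr19:35902279-35902578 (+): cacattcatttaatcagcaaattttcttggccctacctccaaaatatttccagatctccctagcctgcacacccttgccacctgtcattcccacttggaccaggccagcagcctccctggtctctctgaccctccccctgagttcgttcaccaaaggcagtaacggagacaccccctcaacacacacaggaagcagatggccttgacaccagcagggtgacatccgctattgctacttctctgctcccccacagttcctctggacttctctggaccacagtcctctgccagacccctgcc
FGR chr1:27635136-27635435 (-): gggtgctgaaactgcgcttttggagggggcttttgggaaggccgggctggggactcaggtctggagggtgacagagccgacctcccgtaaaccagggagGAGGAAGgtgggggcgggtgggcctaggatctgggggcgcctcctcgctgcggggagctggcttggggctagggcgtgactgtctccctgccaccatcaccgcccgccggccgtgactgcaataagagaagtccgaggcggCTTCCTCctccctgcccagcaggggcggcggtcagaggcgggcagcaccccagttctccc
BTK chrX:101390747-101391046 (-): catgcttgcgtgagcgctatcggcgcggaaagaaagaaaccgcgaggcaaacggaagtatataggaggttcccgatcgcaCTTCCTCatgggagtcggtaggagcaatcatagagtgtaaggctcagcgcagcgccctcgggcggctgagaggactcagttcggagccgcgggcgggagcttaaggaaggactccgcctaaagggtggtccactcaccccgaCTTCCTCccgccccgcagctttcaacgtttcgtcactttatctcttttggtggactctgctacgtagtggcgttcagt
SYK chr9:90801569-90801868 (+): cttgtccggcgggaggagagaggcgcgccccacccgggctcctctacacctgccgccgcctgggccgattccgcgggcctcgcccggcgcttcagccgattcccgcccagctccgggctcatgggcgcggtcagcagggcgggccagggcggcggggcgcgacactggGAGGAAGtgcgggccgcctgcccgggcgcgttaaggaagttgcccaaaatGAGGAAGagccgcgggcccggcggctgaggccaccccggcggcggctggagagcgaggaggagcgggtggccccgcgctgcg
FYN chr6:111873022-111873321 (-): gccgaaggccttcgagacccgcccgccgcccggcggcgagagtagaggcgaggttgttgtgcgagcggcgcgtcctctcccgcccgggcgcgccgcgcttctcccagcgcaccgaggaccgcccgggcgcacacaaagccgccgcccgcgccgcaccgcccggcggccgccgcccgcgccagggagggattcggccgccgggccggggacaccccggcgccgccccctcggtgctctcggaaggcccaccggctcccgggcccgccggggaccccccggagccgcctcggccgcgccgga

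The marked letters occurred 2 times each in the printed windows of TYROBP, FGR, BTK and SYK, and not in those of FCER1G, HCST and FYN. The second start of BTK held 1 more match, while the second start of FGR, both other starts of SYK and the other starts of FYN held none, so the windows printed for FGR and SYK are those of their starts with a match. Of all 35116 promoters of this length, 13.6% held a match on either strand. The windows also differed in CpG dinucleotides, whose median over all promoters was 14, with quartiles of 4 and 28. TYROBP had 8, FCER1G 9 and HCST 3 CpG, whereas the printed window of FYN had 55, that of SYK 40, that of BTK 27 and that of FGR 18. The adaptors thus lay below the median and the printed kinase windows above it, although other starts of FGR, FYN, SYK and BTK had 2 to 26 CpG. A match is a description of the letters and not evidence of binding.

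The levels of the 9 genes fell into 2 kinds in the empty vector. TYROBP, FCER1G and FGR were listed at 0 in all 3 libraries, HCST and BTK were at 0 in 2 of 3, and LYN, FYN, SRC and SYK were above 0 in all 3. The libraries labelled hPRM1 had higher values than every empty vector library for 8 of the 9 genes, the exception being SRC, where 14.5% of all 13588 genes tested in this comparison had all 3 of these libraries above all 3 of the empty vector. The members were chosen with these libraries known, so nothing is read from this count. In hPRM2, none of the genes at 0 in the whole empty vector group was above 0. In bulk RNA, more cells of a type and more RNA per cell cannot be told apart.

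**Figure D1:**
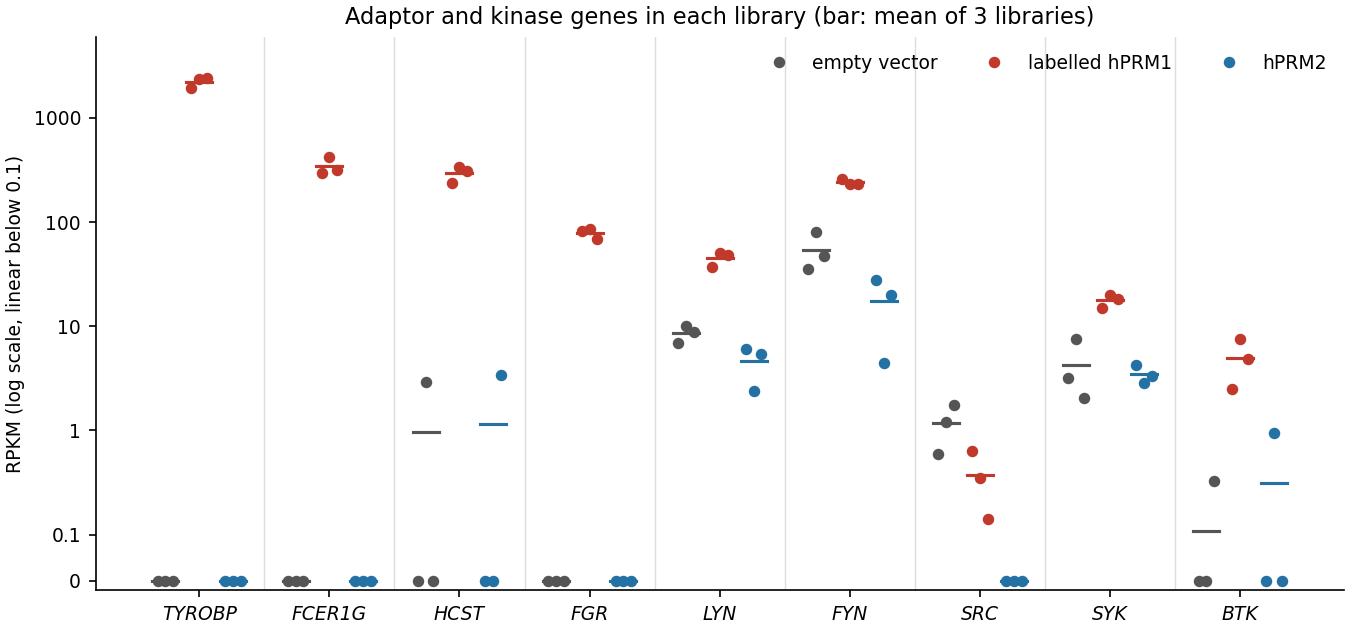
RPKM of the 9 genes in each library (points) with the mean of 3 libraries (bars), on a log axis that is linear below 0.1. TYROBP, FCER1G and FGR are at 0 in the empty vector and hPRM2, while LYN, FYN and SYK are present in all 9 libraries and SRC is at 0 only in hPRM2.

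Among the adaptors, TYROBP (ENSG00000011600, minus strand of chromosome 19 from 35904401 to 35908295 in GRCh38 and GENCODE 29) pairs with receptors such as TREM1 and activating natural killer receptors. It was at 1913, 2349 and 2421 RPKM in replicates 1, 2 and 3 of the libraries labelled hPRM1, a mean of 2228 ± 275 RPKM (SD, n = 3). It ranked 24, 24 and 19 among all genes of these libraries. It was listed at 0 in the 6 other libraries. A 0 can hide as many as 3 reads, or 2.29 RPKM for TYROBP in the shallowest empty vector library, so the lowest library labelled hPRM1 was at least 834-fold higher. This floor was set per library on the shortest annotated transcript and covers counting error only.

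FCER1G (ENSG00000158869, plus strand of chromosome 1 from 161215234 to 161220699) is the common gamma chain of activating Fc receptors. It was at 295.5, 420.2 and 315.2 RPKM in the libraries labelled hPRM1, a mean of 343.6 ± 67.0 RPKM (SD, n = 3), and at 0 in the others. Its lowest value was at least 235-fold above the floor of 1.26 RPKM of the empty vector. Both ITAM adaptors thus had no overlap between these libraries and the other groups.

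HCST (ENSG00000126264, plus strand of chromosome 19 from 35902480 to 35904377) pairs with the receptor NKG2D, the product of KLRK1. It was at 238.3, 339.6 and 311.3 RPKM in the libraries labelled hPRM1, a mean of 296.4 ± 52.3 RPKM (SD, n = 3). It was at 0, 2.90 and 0 RPKM in the empty vector and at 0, 0 and 3.43 RPKM in hPRM2. HCST was thus above 0 in 1 library of each of these groups. The 3′ ends of HCST and TYROBP face each other on opposite strands with a gap of 24 bases, and an antisense transcript overlaps an exon of HCST. Whether reads were counted by strand is not given in the sources used here, so reads near these ends cannot be assigned with certainty.

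The ratio between the adaptors varied little among the libraries labelled hPRM1. TYROBP was 6.47, 5.59 and 7.68 times FCER1G and 8.03, 6.92 and 7.78 times HCST, in RPKM per library. RPKM divides by the gene length although these libraries read 3′ ends, so an order of levels between genes depends on the lengths used.

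Of the Src family members, FGR (ENSG00000000938, minus strand of chromosome 1 from 27612064 to 27635277) acts in neutrophils and monocytes downstream of integrins and Fc receptors. It was at 82.7, 85.4 and 69.5 RPKM in the libraries labelled hPRM1, a mean of 79.2 ± 8.51 RPKM (SD, n = 3), and at 0 in the 6 other libraries. The lowest of these values was at least 78.8-fold above the empty vector floor of 0.882 RPKM. FGR was thus listed only in the libraries labelled hPRM1.

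LYN (ENSG00000254087, plus strand of chromosome 8 from 55879813 to 56014168) starts and also restrains signalling in B cells and myeloid cells. It was at 6.90, 10.1 and 8.71 RPKM with the empty vector, at 37.3, 49.95 and 48.2 RPKM in the libraries labelled hPRM1 and 6.04, 2.40 and 5.37 RPKM in hPRM2. LYN was thus read in every library of all 3 groups. The libraries labelled hPRM1 lay above all others, and each hPRM2 library lay below each empty vector library, as 29.9% of the 13126 genes tested in that comparison did.

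FYN (ENSG00000010810, minus strand of chromosome 6 from 111660332 to 111873452) is widely expressed and phosphorylates T cell receptor ITAMs beside LCK. It was at 35.4, 79.6 and 47.1 RPKM with the empty vector, at 259.4, 233.3 and 232.4 RPKM in the libraries labelled hPRM1 and 27.5, 4.47 and 19.9 RPKM in hPRM2. FYN had the highest level of the 9 genes in every empty vector library, and in the libraries labelled hPRM1 its values overlapped those of HCST. The hPRM2 libraries lay below all empty vector libraries, with replicate 2, the library with the fewest estimated reads on genes, lowest.

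SRC (ENSG00000197122, plus strand of chromosome 20 from 37344685 to 37406050) is the kinase that gave the family its name and acts at adhesion sites in most cells. It was at 0.591, 1.21 and 1.74 RPKM with the empty vector, at 0.631, 0.351 and 0.142 RPKM in the libraries labelled hPRM1 and 0 in all 3 hPRM2 libraries. SRC was the only member without a higher level in the libraries labelled hPRM1, and the lowest empty vector value lay below the highest of theirs. The hPRM2 libraries, all at 0, had the fewest estimated reads on genes. SRC was below the filter on low values in both comparisons, so neither difference was tested.

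Of the kinases that follow, SYK (ENSG00000165025, plus strand of chromosome 9 from 90801787 to 90898549) binds phosphorylated ITAMs. It was at 3.20, 7.46 and 2.03 RPKM with the empty vector, at 14.9, 20.1 and 18.1 RPKM in the libraries labelled hPRM1 and 4.21, 2.87 and 3.34 RPKM in hPRM2. The empty vector and hPRM2 values overlapped, and the libraries labelled hPRM1 were above both.

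BTK (ENSG00000010671, minus strand of chromosome X from 101349447 to 101390796) activates phospholipase C gamma in B cells and myeloid cells. It was at 0, 0 and 0.325 RPKM with the empty vector, at 2.52, 7.60 and 4.80 RPKM in the libraries labelled hPRM1 and 0, 0.936 and 0 RPKM in hPRM2. BTK was thus the lowest of the 8 members that were higher in the libraries labelled hPRM1, and the spread among those 3 libraries was about 3-fold.

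Within the libraries labelled hPRM1 the order of mean RPKM was TYROBP, FCER1G, HCST, FYN, FGR, LYN, SYK, BTK and SRC. The ranges of FCER1G and HCST overlapped, although FCER1G was above HCST in each library. Those of HCST and FYN overlapped too, and the ranges of each other neighbouring pair did not. In the empty vector the order was FYN, LYN, SYK, SRC, HCST and BTK, where the values of LYN and SYK overlapped, and those of SRC, HCST and BTK were all below 3 RPKM.

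On the log2(RPKM + 1) scale the libraries labelled hPRM1 differed from the empty vector by 2.27 for LYN, 2.22 for FYN, 1.96 for SYK, 2.35 for BTK and -0.65 for SRC. The median difference of all 13588 genes tested was -1.72, so a gene with no difference on this scale lay above most genes. With median-of-ratios scaling the median over all genes was 0.07, and the differences became 4.27 for LYN, 4.37 for FYN, 3.77 for SYK, 3.31 for BTK and 0.18 for SRC. The sign of SRC thus depended on the scaling, and with quantile normalization it was 0.13. The other 8 members kept their sign with both. Of the 13588 genes, 12.9% were called higher and 62.5% lower with the deposited scaling, and 31.5% and 27.8% with median-of-ratios, with a call defined as an adjusted p of at most 0.05 and at least 2-fold in limma. The members' values had been used in choosing them, so no test is read from this contrast.

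**Figure D2:**
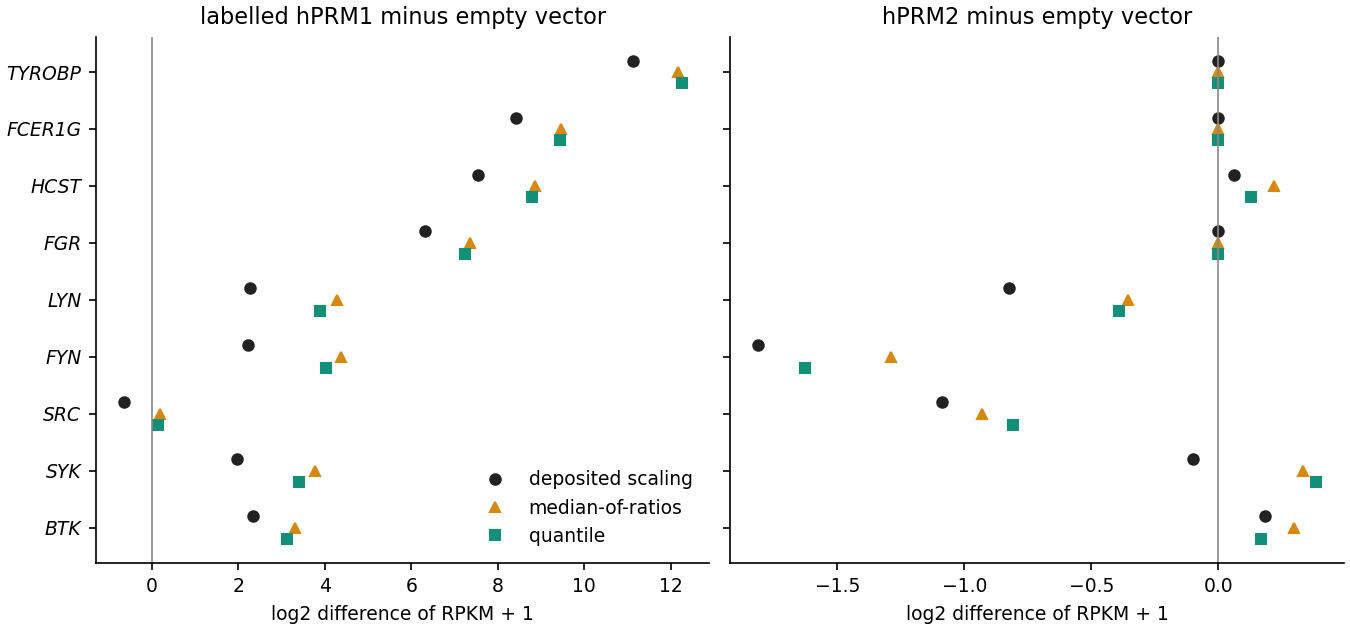
Difference in mean log2(RPKM + 1) from the empty vector for each of the 9 genes, for the libraries labelled hPRM1 (left) and hPRM2 (right), with the deposited scaling, median-of-ratios and quantile normalization. The point of SRC moves from -0.65 to 0.18 and 0.13 on the left, and that of SYK from -0.10 to 0.33 and 0.38 on the right.

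The blood-enriched and broadly expressed Src family genes reported here were then compared within each library, which does not depend on how libraries are scaled. Such shares do depend on the gene lengths by which RPKM divides. FGR, LYN, LCK and BLK were counted as blood-enriched, and FYN, SRC and YES1 as broad, leaving out the epithelial FRK. The blood-enriched genes made up 13.9%, 12.3% and 18.1% of the summed RPKM of these 7 genes in the empty vector, and LYN held most of that share. In the libraries labelled hPRM1 they made up 35.3%, 41.4% and 38.4%, with FGR, LYN and LCK all contributing. The broad share in those libraries was nearly all FYN, since without FYN the blood-enriched share was 99.5%, 99.6% and 99.8%, against 48.5%, 63.4% and 65.7% in the empty vector. Broad members therefore did not move as 1 group, with FYN higher, YES1 lower and SRC low throughout.

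In hPRM2 the blood-enriched share was 73.6%, 89.9% and 63.9%, a mean of 75.8% ± 13.1 against 14.8% ± 2.97 in the empty vector (SD, n = 3 each). Every hPRM2 value was above every control value, which gave p = 0.1 in an exact permutation test (two-sided), the lowest p open to 3 libraries against 3. The share rested on a single gene, LCK, which alone held 67.8%, 85.3% and 55.0% of the sum of the 7 genes. Without LCK, an alternative added after its values were seen, the share was 18.0%, 30.8% and 19.8% in hPRM2 and 13.9%, 10.4% and 14.0% in the empty vector, a difference of 10.1 instead of 61.0 percentage points (exact permutation test, two-sided, p = 0.1). It was 6.10 percentage points without hPRM2 replicate 2 as well. FGR and BLK were at 0 in all hPRM2 libraries.

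**Figure D3:**
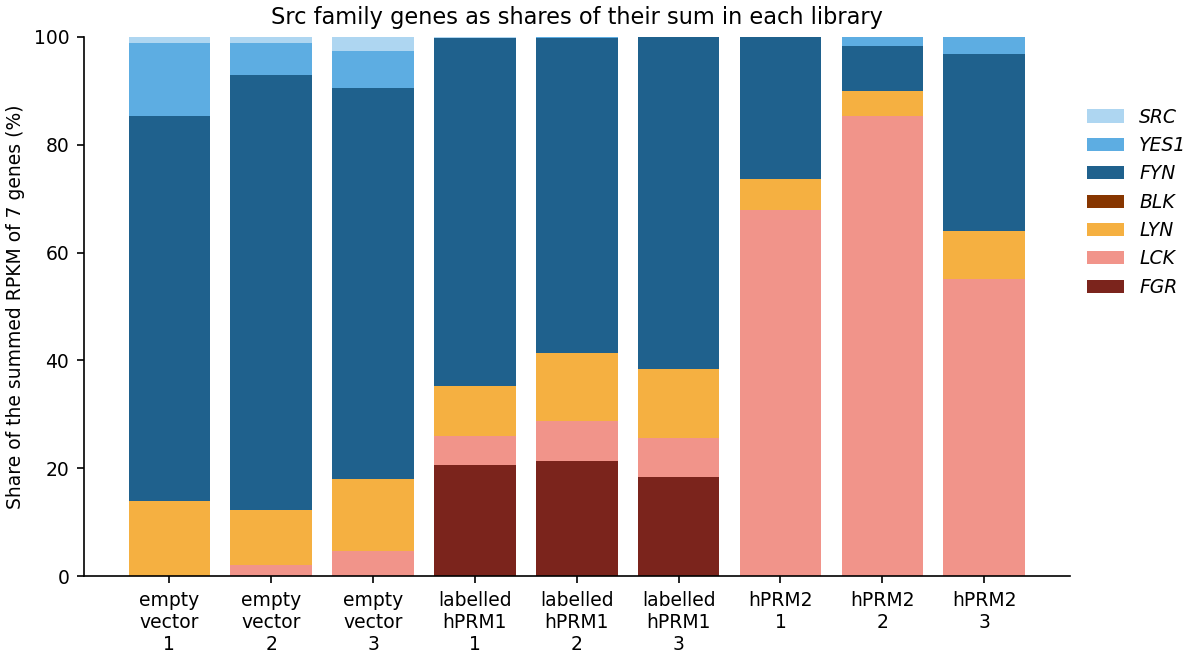
Share (%) of each of 7 Src family genes in their summed RPKM, 1 bar per library. FYN fills most of the empty vector bars, FYN and FGR most of the bars labelled hPRM1, and LCK 55.0% to 85.3% of the hPRM2 bars.

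The ratio of FYN to LYN differed less between the empty vector and the libraries labelled hPRM1 than either level did. It was 5.13, 7.92 and 5.41 with the empty vector, against 6.96, 4.67 and 4.82 in the libraries labelled hPRM1 and 4.55, 1.86 and 3.71 in hPRM2. Empty vector values overlapped those of the libraries labelled hPRM1 in this ratio, although both genes were higher in the latter, and the hPRM2 libraries lay below the empty vector.

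The hPRM2 libraries were not used to choose the members, so their comparison with the empty vector was tested. Of the 9 members, 3 passed the filter of at least 1 RPKM in at least 3 of the 6 libraries, and none was called, against 2.74% of all 13126 genes tested. That background was itself unsteady, since the 359 calls became 12 to 84 on leaving out any library but hPRM2 replicate 1, and 2429 without that library. At an unadjusted p under 0.05, 1 of the 3 would have passed, FYN, as 3351 of all 13126 genes did. The per-gene unequal-variance test called 0 of the 3, but it called 0 of all 13126 genes too, so nothing about the members is read from it. FYN differed by -1.81 ± 0.71 (SE) on the log2 scale, with a 95% interval from -3.48 to -0.14 and an adjusted p of 0.173. LYN differed by -0.83 ± 0.57 (interval -2.16 to 0.51, adjusted p = 0.378) and SYK by -0.10 ± 0.61 (interval -1.54 to 1.34, adjusted p = 0.925). The median of all genes tested was -0.72, so LYN was near it, FYN below and SYK above. The intervals include changes of 2-fold for each of the 3 genes, so the data do not show that they were unchanged. The estimated reads on genes were fewest in hPRM2 of the 3 groups, and their part in these differences was not tested. Both comparisons share the empty vector libraries.

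The other Src family genes and the regulators of the family gave the context of the members. BLK, a B cell kinase, was at 0.186, 0.202 and 0.244 RPKM in the libraries labelled hPRM1 and at 0 elsewhere. YES1, a broad member, was at 6.74, 5.79 and 4.39 RPKM with the empty vector but at 0.119, 0.283 and 0.089 RPKM in the libraries labelled hPRM1. YES1 was lower by 2.501 ± 0.23 (SE, adjusted p = 8.23e-05 in limma) on the log2 scale. It passed the filter through the empty vector libraries, the group in which it was higher. YES1 and FYN, both broad, thus moved apart in the libraries labelled hPRM1. In hPRM2 YES1 was at 0, 0.912 and 1.88 RPKM (log2 difference -1.90 ± 0.59, adjusted p = 0.118), below the empty vector but not called.

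CSK phosphorylates the tail of Src family kinases and keeps them closed, and PTPRC (CD45) removes that phosphate. CSK was at 21.7, 17.7 and 22.5 RPKM with the empty vector, at 19.7, 31.2 and 32.6 RPKM in the libraries labelled hPRM1 and 18.3, 1.56 and 8.90 RPKM in hPRM2. It was not called in the libraries labelled hPRM1 (log2 difference 0.39 ± 0.25, adjusted p = 0.199) but was called higher with median-of-ratios and with quantile normalization. PTPRC was at 96.8, 148.9 and 130.0 RPKM in the libraries labelled hPRM1, against 0.028, 0 and 0 RPKM in the empty vector and 0 in hPRM2. It passed the filter only through the libraries labelled hPRM1, so no p is given for it. The inhibitory kinase was thus read in all groups and the leukocyte phosphatase almost only in the libraries labelled hPRM1.

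**Figure D4:**
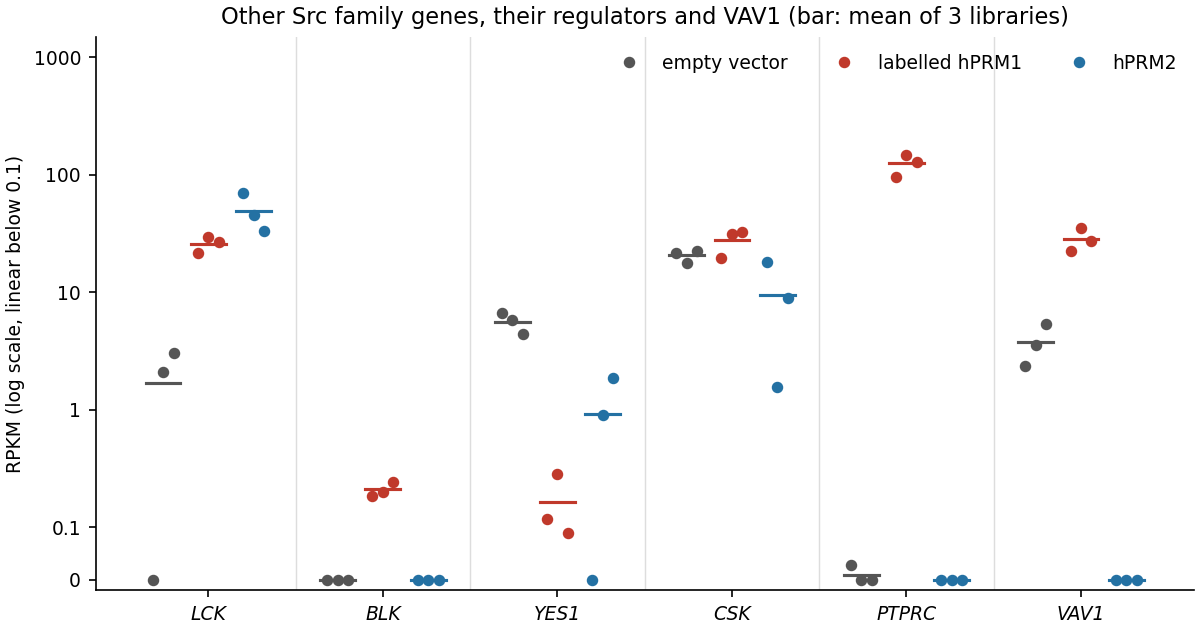
RPKM of LCK, BLK, YES1, CSK, PTPRC and VAV1 in each library (points) with the mean of 3 libraries (bars), on a log axis that is linear below 0.1. LCK is highest in hPRM2, while BLK and PTPRC are at 0 there and VAV1 is at 0 in all 3 hPRM2 libraries.

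Around the members, 69 further genes of ITAM and Src family signalling were examined, a list written with earlier results of these data known. In the libraries labelled hPRM1, 59 were tested, 46 were called higher and 4 lower, and 9 were not called, with a median log2 difference of 3.03 against -1.72 for all genes. Of all 13588 genes tested, 12.9% were called higher and 62.5% lower. With median-of-ratios scaling, 54 of 60 were higher and 2 lower, with a median of 4.22. Among all genes, 31.5% were then called higher and 27.8% lower. The pathway counts are set in part by the filter, since 35 of the 59 had no empty vector library at or above 1 RPKM. These could be tested only by being higher in the libraries labelled hPRM1. Of the other 24, those below 1 RPKM in any empty vector library also needed the libraries labelled hPRM1 to pass. The 15 genes at 1 RPKM or more in all 3 empty vector libraries were tested whatever their level elsewhere. Of these, 5 were called higher (GAB2, VAV1, PIK3CD, PRKCB and PRKCD), 4 lower (YES1, MATK, PTPN11 and VAV2) and 6 were not called. The shares of all genes given above were not limited to such genes. The summed level of the 10 neutrophil and monocyte markers in the libraries labelled hPRM1 was 3934 to 5077 RPKM, against 0.284 to 3.10 RPKM in the empty vector, and that of the 8 lymphocyte markers 627.0 to 854.6 RPKM against 0, with all 8 at 0 in the empty vector. Their part in these differences was not tested, and the lymphocyte markers CD3D, CD3E and CD79A are also in the signalling list.

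By role, the 6 ITAM subunits of the antigen receptors (the CD3 chains, CD247, CD79A and CD79B) and 11 of 15 receptors that use the adaptors or SYK, as well as ZAP70 and TXK, could be tested only by being higher in the libraries labelled hPRM1, so their direction is a description. Among 13 tested Src family regulators, 6 of them tested only in that way, 8 were called higher, 2 lower and 3 not. Among 11 downstream adaptors, 6 tested only in that way, 9 were called higher and 2, GRB2 and SKAP2, were not called. Among 12 tested effectors, 2 tested only in that way, 7 were called higher, 1 lower and 4 not. The numbers tested only in that way leave out genes such as RAC2, PLCG2, LAT, DOK3 and PTPN6. These reached 1 RPKM in too few empty vector libraries and also passed the filter through the libraries labelled hPRM1. Genes that were also read in the empty vector, such as GRB2, PLCG1 and CBL, were among those not called. With median-of-ratios scaling, PLCG1, VAV2, VAV3 and MATK were the ones not called, and GRB2, SKAP2, CSK and CBL were called higher. TREM2 and BCL10 were listed at 0 in all 9 libraries.

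The 3 highest differences belonged to RAC2, CD247 and FYB1. RAC2, a small GTPase of blood cells that serves the neutrophil oxidase, was at 460.6, 541.9 and 509.2 RPKM in the libraries labelled hPRM1 against 0.921, 1.52 and 0 RPKM in the empty vector (log2 difference 8.22 ± 0.35, SE). CD247, the zeta chain of the T cell receptor, was at 151.2, 218.0 and 219.3 RPKM, and FYB1, an adaptor of T cells and myeloid cells, at 166.9, 204.7 and 201.8 RPKM, with both at 0 in the other 6 libraries. The highest 3 thus came from an effector, an ITAM subunit and an adaptor.

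The 3 lowest were PTPN11, YES1 and VAV2, in a comparison where the median of all genes was -1.72 and 62.5% were called lower. PTPN11, the widely expressed phosphatase SHP2, was at 46.5, 54.0 and 19.2 RPKM with the empty vector but only 1.64, 2.66 and 3.20 RPKM in the libraries labelled hPRM1 (log2 difference -3.45 ± 0.43, adjusted p = 0.0003). VAV2, a broadly expressed exchange factor, was at 18.6, 7.45 and 23.6 RPKM and at 2.53, 2.51 and 1.55 RPKM (log2 difference -2.33 ± 0.43, adjusted p = 0.00201) and was not called with median-of-ratios scaling. PTPN6 and VAV1, the relatives of these genes in blood cells, were instead higher. PTPN6 was at 0, 3.04 and 0 RPKM with the empty vector but 155.8, 196.7 and 204.9 RPKM in the libraries labelled hPRM1, and was picked for this comparison after its values were seen.

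**Figure D5:**
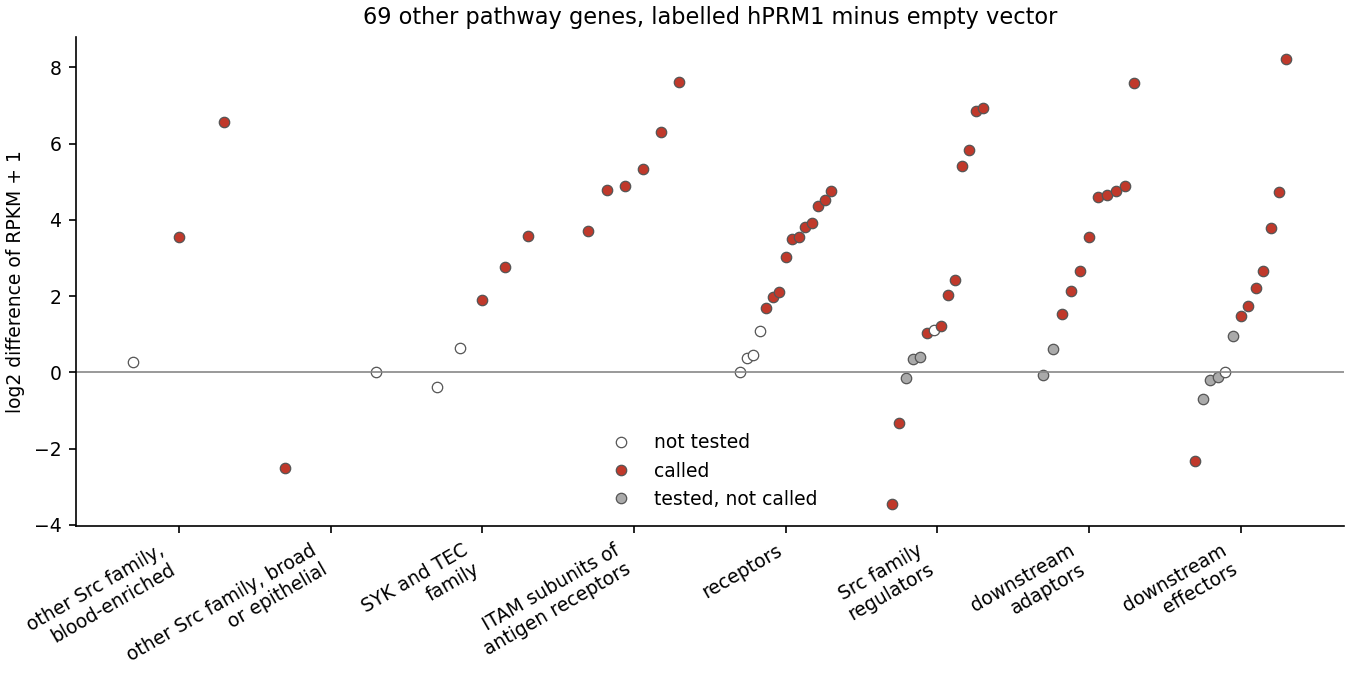
Log2 difference of RPKM + 1, libraries labelled hPRM1 minus empty vector, for 69 pathway genes (1 point per gene, ordered within each role), filled red where called, grey where tested and not called, and open where not tested. The points run from -3.45 (PTPN11) to 8.22 (RAC2), and the 4 called below 0 are YES1, 2 regulators and 1 effector.

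In hPRM2, 17 of the 69 genes were tested and 2 were called, LCK higher and VAV1 lower, beside 2.74% of all genes called and 1.36% called higher. LCK, the kinase that phosphorylates T cell receptor ITAMs, was at 0, 2.09 and 3.03 RPKM in the empty vector and at 70.6, 45.3 and 33.3 RPKM in hPRM2 (log2 difference 4.39 ± 0.70, adjusted p = 0.0334). Its hPRM2 values also lay above the 21.7, 29.5 and 27.1 RPKM of the libraries labelled hPRM1. All 8 lymphocyte markers, among them CD2, CD3D, CD3E and IL7R, were at 0 in the 3 hPRM2 libraries, and ZAP70 and CD247 were at 0 there too. LCK was thus high in hPRM2 without these genes, whereas in the libraries labelled hPRM1 it came with them.

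VAV1, the exchange factor that SYK phosphorylates, was at 2.35, 3.56 and 5.37 RPKM with the empty vector, at 22.5, 35.0 and 27.2 RPKM in the libraries labelled hPRM1 and 0 in all 3 hPRM2 libraries (log2 difference -2.20 ± 0.41 for hPRM2, adjusted p = 0.0428). The fitted value of a gene at 0 depends on the pseudocount, and both LCK and VAV1 passed the filter through the group in which they were higher. Neither call was firm. Leaving out any empty vector library, or hPRM2 replicate 2 or 3, ended both, with adjusted p-values from 0.0645 to 0.116 for LCK and from 0.0729 to 0.160 for VAV1, although the direction stayed, and leaving out hPRM2 replicate 1 kept both (adjusted p = 0.0225 and 0.0312).

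The genes whose pattern over the 9 libraries was most like that of TYROBP were SIGLEC5, SIRPB1, CD93, FYB1 and SERPINA1, with Pearson r of log2(RPKM + 1) above 0.99 for 358 of 13217 genes. These 5 genes were at 0 in the 6 libraries of the other groups, as TYROBP was. For SRC they were LINC02804 (r = 0.985), SDCBP2 (0.949), MATN1-AS1 (0.948), SMKR1 (0.946) and FBH1 (0.946), and no gene exceeded 0.99. These are descriptions over 9 libraries whose estimated reads on genes differed by group, so read number and group cannot be told apart in them.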

How the data were processed

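The 9 libraries, all labelled as HEK293T, fall into 3 groups of 3. According to the methods and labels, the authors processed 3′-enriched libraries with nf-core/rnaseq (FastQC, Cutadapt, STAR and Salmon, hg38), removed mitochondrial genes and deposited RPKM values without counts; versions, annotation and strand setting are not given in the sources used here. Replicates were not pooled, and 0 columns were left unused. The members and lists were chosen with earlier results of these data known.

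Each protamine group was set against the empty vector libraries in R 4.3.3 with limma 3.58.1 (trend and robust) on log2(RPKM + 1), for genes of at least 1 RPKM in 3 of 6 libraries, with Benjamini-Hochberg adjustment over all genes tested. The pseudocount understates changes of low genes. The script was tested on simulated data. Shares were compared with exact permutation tests in Python 3.11.15 with SciPy 1.17.1. Reads on genes were estimated from low values with GENCODE 29 lengths minus 250 bases, which covers counting error only. The text names the 9 members, the 3 highest and 3 lowest called pathway genes for hPRM1, LCK, BLK, YES1, CSK and PTPRC, pathway genes called for hPRM2, and the 5 genes most like TYROBP and SRC, with group examples beside them. Some genes of the lists are not reported here; they are in the pathway counts but not in the Src family share, whose hPRM2 and empty vector values are the same with them. The alternatives tried were a minimum of 10 RPKM or none, a pseudocount of 0.1 or 5, median-of-ratios and quantile scaling, 1 fit of all libraries, a replicate block, leave-one-out, a per-gene unequal-variance test and no fold threshold.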

Additional observations from a re-analysis of the deposited data

How the results depend on the processing

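For the libraries labelled hPRM1, 46 pathway genes were higher and 4 lower; a minimum of 10 RPKM gave 27 and 1, and the lower count was 2 with median-of-ratios and with quantile normalization. For hPRM2, 2 pathway genes were called, against 1 with a pseudocount of 0.1 or 5, a minimum of 10, median-of-ratios or quantile normalization, 0 without a filter, with the replicate block or with the per-gene test, and 6 in 1 fit of all 9 libraries; leaving out 1 library gave 0 to 6. The count of members called for hPRM2 was 0 in every alternative. The difference in the blood-enriched share, 61.0 percentage points, was 71.3 without LYN and 10.1 without LCK (6.10 without hPRM2 replicate 2 as well), with a sign-flip p of 0.25 within replicate numbers. Signs turned for SRC in the libraries labelled hPRM1 (0.18 with median-of-ratios, 0.13 with quantile normalization), and in hPRM2 for SYK (0.33, 0.38, and -0.43 to 0.32 when 1 library was left out), HCST (-0.65 to 0.72 on leaving out 1 library), BTK (-0.14 to 0.34 likewise) and RAC2 (0.33 with quantile normalization), none of them called; the cause was not tested.

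Over all genes, the libraries labelled hPRM1 gave 1750 higher and 8491 lower, against 4205 and 3714 with median-of-ratios, 3404 and 4672 with quantile normalization, 1152 higher with a pseudocount of 5 and 867 and 4970 with a minimum of 10. For hPRM2, 179 and 180 became 507 and 1618 in 1 fit, 810 and 1619 without hPRM2 replicate 1, 10 to 40 and 2 to 44 without any other single library, 223 and 82 with median-of-ratios, 235 and 79 with quantile normalization, 72 and 17 without a filter and 0 and 0 with the per-gene test, where 2206 had an unadjusted p under 0.05. Replicate numbers did not pair the libraries (correlations of deviations -0.08 to 0.08), and the block changed the hPRM2 counts to 49 and 8. Estimated reads on genes were fewest in hPRM2, and their part in how these counts moved was not tested.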
